A study of Mus musculus with 6 samples.

Results

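Transcript levels of 30 interferon-stimulated genes were compared in atherosclerotic lesions of the brachiocephalic artery, the large branch of the mouse aortic arch. The 30 genes were taken by symbol from a list of interferon-stimulated genes without the guanylate-binding proteins, and all 30 were found among the 24391 genes of the count table. They comprise 3 transcription factors, 3 members of the IFIT family, 5 of the OAS family, 5 sensors of foreign or self nucleic acids, 3 genes of the ISG15 system, 4 antiviral effectors and 7 PARP and other regulators. The libraries came from 3 Col15a1-/- (KO) and 3 wild type (WT) mice, all on a C57BL/6 background and all given a Western diet for 18 weeks, so the diet was shared by both groups. The series title describes the loss of Col15a1, which encodes a collagen of basement membrane zones, as specific to smooth muscle cells, while the genotype label gives a plain Col15a1-/-. The labels used here name no Cre driver, no atherosclerosis-prone allele and no age. The tissue is labelled as a mixture of smooth muscle, epithelial, macrophage and other cells. Each value is an average over that mixture, in which fewer cells of a type and less RNA per cell cannot be told apart.

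Type I interferons bind the receptor made of IFNAR1 and IFNAR2, whose kinases JAK1 and TYK2 switch on the transcription factor complex ISGF3, in which STAT2 and IRF9 take part. ISGF3 binds the interferon-stimulated response element in the promoters of genes such as these 30. Many of the products block steps of viral replication, others sense nucleic acids or feed back on the pathway, and in atherosclerotic arteries macrophages, endothelial cells and smooth muscle cells can all respond to interferon.

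Promoters were searched for the element that ISGF3 binds. RefSeq windows (GRCm38.p6) of 250 bases before to 50 bases after the transcription start were matched by symbol for 22 of the 30 genes. The core of the interferon-stimulated response element, GAAANNGAAA on either strand with overlapping matches counted, was present in 12 of the 22 genes, namely Bst2, Ddx58, Eif2ak2, Ifih1, Ifit1, Ifit3, Isg15, Oas1a, Oas3, Rsad2, Stat2 and Trim30a, and in 3.99% of all 27025 genes with a window (3.44% of 32851 windows, since some genes have more than 1). The gamma-activated sequence TTCNNNGAA, which reads the same on both strands and is known from promoters that respond to interferon-gamma, was present in 5 of the 22 genes (Bst2, Eif2ak2, Ifi35, Ifit2 and Oas1a) and in 9.55% of all genes with a window (8.30% of windows). A match describes the letters in the window and is not a measured binding site.

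The 250 bases before the start of 7 genes are printed 5′ to 3′ on the gene's strand, with bases that belong to a core match in capitals. Isg15 and Oas1a show runs of overlapping cores, Ifit1 and Ifit3 show the core on the opposite strand at separate places, Bst2 and Rsad2 are among the genes with the largest differences between the groups relative to their spread, and Cmpk2, the neighbour of Rsad2, held no core. They lie at chr4:156200819-156201068 (minus strand), chr5:120907526-120907775 (minus strand), chr19:34640639-34640888 (plus strand), chr19:34583279-34583528 (plus strand), chr8:71537473-71537722 (minus strand), chr12:26456453-26456702 (minus strand) and chr12:26468965-26469214 (plus strand).
Isg15: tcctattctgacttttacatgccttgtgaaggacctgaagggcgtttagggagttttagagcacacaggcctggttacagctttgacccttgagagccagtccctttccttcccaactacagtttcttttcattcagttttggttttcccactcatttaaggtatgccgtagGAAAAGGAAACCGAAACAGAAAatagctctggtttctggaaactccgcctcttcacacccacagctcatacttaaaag
Oas1a: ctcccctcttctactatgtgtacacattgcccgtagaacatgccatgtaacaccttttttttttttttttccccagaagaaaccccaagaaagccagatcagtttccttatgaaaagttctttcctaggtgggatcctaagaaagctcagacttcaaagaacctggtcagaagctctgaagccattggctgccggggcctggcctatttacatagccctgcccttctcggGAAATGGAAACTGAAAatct
Ifit1: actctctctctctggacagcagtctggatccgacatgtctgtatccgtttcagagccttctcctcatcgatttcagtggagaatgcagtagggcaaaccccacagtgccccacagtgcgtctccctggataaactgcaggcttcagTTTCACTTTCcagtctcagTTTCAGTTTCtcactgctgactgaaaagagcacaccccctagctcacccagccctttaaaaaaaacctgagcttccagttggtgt
Ifit3: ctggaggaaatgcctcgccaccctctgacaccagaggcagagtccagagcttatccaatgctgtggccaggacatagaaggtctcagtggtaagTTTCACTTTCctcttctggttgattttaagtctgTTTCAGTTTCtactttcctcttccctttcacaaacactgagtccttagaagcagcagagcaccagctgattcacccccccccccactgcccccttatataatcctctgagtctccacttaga
Bst2: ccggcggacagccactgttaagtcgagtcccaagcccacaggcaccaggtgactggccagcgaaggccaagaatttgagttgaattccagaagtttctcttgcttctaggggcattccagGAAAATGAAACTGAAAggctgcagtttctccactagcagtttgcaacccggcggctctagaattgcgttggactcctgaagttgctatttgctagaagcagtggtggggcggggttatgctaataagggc
Rsad2: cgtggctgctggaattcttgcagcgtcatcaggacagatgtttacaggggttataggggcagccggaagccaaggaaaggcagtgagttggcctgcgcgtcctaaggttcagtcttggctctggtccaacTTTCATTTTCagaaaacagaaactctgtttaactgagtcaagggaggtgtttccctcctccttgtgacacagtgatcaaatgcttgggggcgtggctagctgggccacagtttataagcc
Cmpk2: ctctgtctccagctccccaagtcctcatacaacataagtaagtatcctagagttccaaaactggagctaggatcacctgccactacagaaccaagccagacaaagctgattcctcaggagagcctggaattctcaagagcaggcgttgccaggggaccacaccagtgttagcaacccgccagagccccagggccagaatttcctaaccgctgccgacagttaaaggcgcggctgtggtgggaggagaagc

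The libraries held 22223584 to 26982005 counts, and Rn45s, the ribosomal RNA precursor, took 2.04% (WT 2) to 10.4% (KO 3) of them. Col15a1, the targeted gene, had 193, 198 and 91.0 CPM in KO 1, KO 2 and KO 3, against 574, 407 and 501 CPM in WT 1, WT 2 and WT 3, in the direction of the labels. Its adjusted p was 0.587 by edgeR and 0.00224 by DESeq2. Of the labelled cell types, smooth muscle and macrophage markers were abundant, whereas the epithelial genes Epcam, Cdh1 and Krt18 reached at most 1.57, 8.99 and 10.6 CPM in any library. KO 3 and WT 2 stood apart from the other 4 libraries in transcripts of sympathetic neurons, which summed to 344, 289.8 and 7706 CPM in KO 1, KO 2 and KO 3, against 345, 4041 and 443 CPM in WT 1, WT 2 and WT 3. Results are therefore also given without this pair and within it.

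By edgeR's quasi-likelihood test none of the 30 genes was called between KO and WT lesions at an adjusted p of 0.05. Over the 15937 genes tested the background was also 0% (0 genes). Neither Col15a1, the targeted gene, nor Gbp2b, a guanylate-binding protein gene, was called by edgeR (adjusted p 0.587 for each). A lack of calls in this fit therefore does not show a lack of change. All 30 passed the filter on low counts. DESeq2 called 53 genes, 0.347% of those to which it gave an adjusted p, and 0 of the 30, and limma-voom called 0 genes (0%). The smallest adjusted p of any of the 30 under any setting run was 0.330, for Bst2 by DESeq2. Before adjustment 3 of the 30 had p under 0.05 by edgeR, all lower in KO, against 1275 of all genes tested, or 8% (3.98% lower and 4.02% higher in KO). The same 3, Bst2, Oas1a and Dhx58, were those whose KO and WT libraries did not overlap, with KO below WT, against 16.7% of all genes tested (8.38% with KO below and 8.33% with KO above). These 3 genes are 10% of the set, which lies near the background of the test and below that of non-overlap.

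The direction leaned to KO being lower, a lean that was not tested. Among the 30 genes 23 had a negative log2 fold change and 7 a positive one (Stat2, Oas2, Usp18, Herc6, Cmpk2, Xaf1 and Ifi35), while 39.1% of all genes tested were negative. The median log2 fold change was -0.15 over the 30 genes and 0.068 over all genes. The median size of the difference, 0.20 on the log2 scale, was smaller than the median spread within the groups on the log2(CPM + 1) scale, an SD of 0.27 in KO and 0.28 in WT. A typical gene of the set differed 1.75-fold between its highest and its lowest library.

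The same few libraries were the extremes across much of the set. WT 2 was the highest library for 19 of the 30 genes, against 8.68% of all genes tested, and KO 2 was the lowest for 21 of the 30, against 12.1% of all genes. The mean log2(CPM + 1) over the set was 4.96, 4.53 and 4.91 in KO 1, KO 2 and KO 3, against 4.77, 5.27 and 4.86 in WT 1, WT 2 and WT 3. KO 1 and KO 3 thus lay above WT 1 and WT 3 in this mean, and only WT 2 exceeded all KO libraries. The summed level gave the same order, 1185, 906 and 1164 CPM in KO 1, KO 2 and KO 3, against 1046, 1415 and 1102 CPM in WT 1, WT 2 and WT 3.

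**Figure D1:**
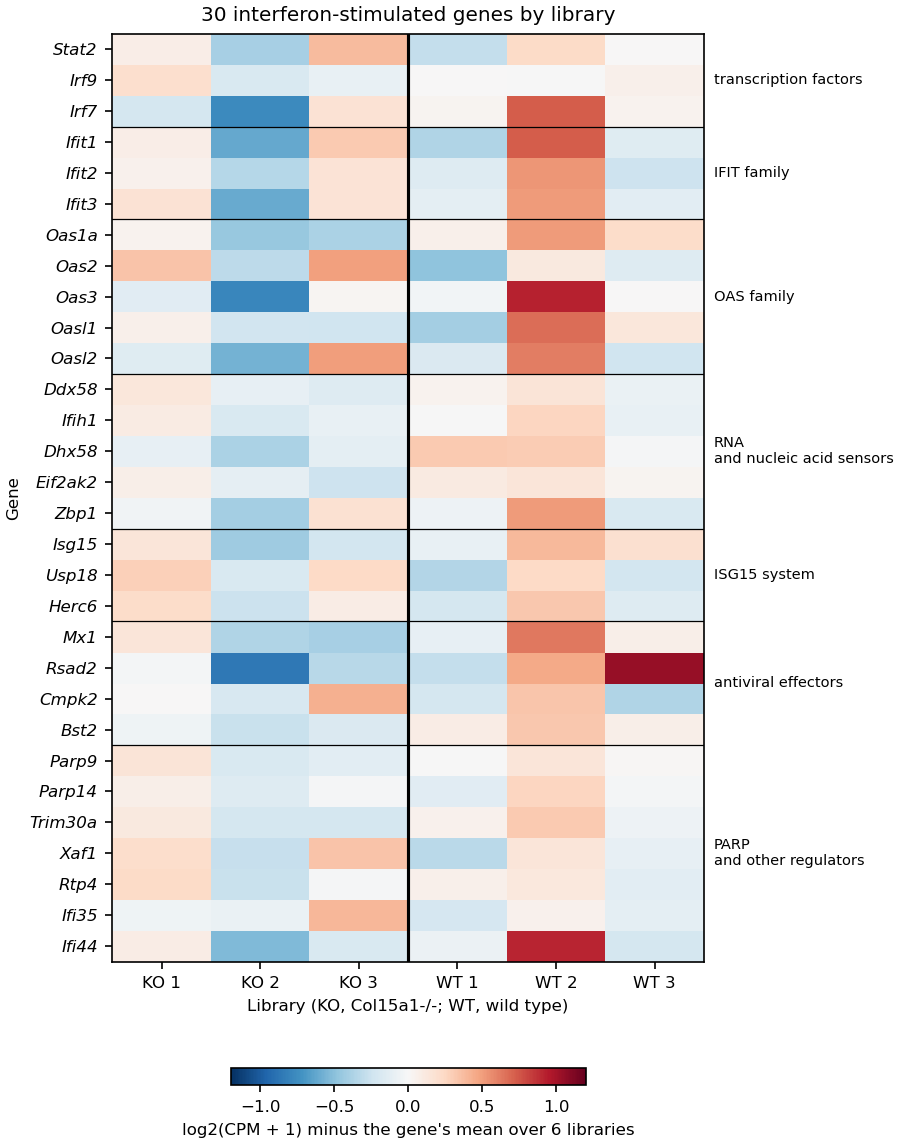
Log2(CPM + 1) of each of the 30 genes in each library, relative to the gene's mean over the 6 libraries, with KO columns left of WT columns, genes grouped by role and a colour scale from -1.2 to 1.2. The WT 2 column is the highest for 19 genes and the KO 2 column the lowest for 21, and no column block separates KO from WT.

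Of the 3 transcription factors 2 had negative log2 fold changes, and the groups overlapped in all 3. Irf7, which drives the second wave of type I interferon production, had 28.8, 19.2 and 37.6 CPM in KO 1, KO 2 and KO 3, against 34.1, 56.0 and 34.4 CPM in WT 1, WT 2 and WT 3. KO 3 lay above WT 1 and WT 3, so the groups overlapped (log2 fold change -0.54, SE 0.31, unadjusted p 0.134, adjusted p 0.708 by edgeR), and without WT 2 the log2 fold change of Irf7 was -0.26. Stat2, the ISGF3 subunit that carries the transactivation domain, averaged 73.0 ± 19.3 CPM in KO and 70.2 ± 12.7 CPM in WT (SD, n = 3 each; log2 fold change 0.057, SE 0.24). Irf9, the DNA-binding subunit of ISGF3, averaged 46.3 ± 6.82 CPM in KO and 47.4 ± 1.19 CPM in WT, a log2 fold change of -0.035 (SE 0.13). Stat2 and Irf9 thus differed by less than their standard errors.

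IFIT proteins bind viral RNA with foreign 5′ ends and bind one another. Ifit1, Ifit2 and Ifit3 lie in 1 cluster on chromosome 19. Each was highest in WT 2 and lowest in KO 2, the extremes for 19 and 21 of the 30 genes. Ifit3 had 53.9, 30.9 and 53.3 CPM in KO 1, KO 2 and KO 3, against 43.8, 68.4 and 43.4 CPM in WT 1, WT 2 and WT 3, so that KO 1 and KO 3 lay above WT 1 and WT 3 (log2 fold change -0.17, SE 0.29, adjusted p 0.921). Ifit1 averaged 32.1 ± 10.1 CPM in KO and 36.4 ± 15.8 CPM in WT and Ifit2 47.3 ± 8.42 CPM in KO and 51.2 ± 16.3 CPM in WT (SD, n = 3 each), with log2 fold changes of -0.18 (SE 0.37) and -0.11 (SE 0.26). Without WT 2 all 3 turned to positive log2 fold changes, 0.23 for Ifit1, 0.18 for Ifit2 and 0.078 for Ifit3. Counts of Ifit3 are uncertain, since reads shared with its near-identical copy Ifit3b were not counted.

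OAS enzymes answer double-stranded RNA by making oligoadenylates that activate RNase L. Oas1a (chromosome 5, 121346266 to 121357534, minus strand, mm9) had 14.7, 10.1 and 10.7 CPM in KO 1, KO 2 and KO 3, against 14.9, 20.6 and 16.7 CPM in WT 1, WT 2 and WT 3. Every KO library lay below every WT library, although KO 1 and WT 1 differed by less than the SD of either group (log2 fold change -0.56, SE 0.21, unadjusted p 0.0350, adjusted p 0.602 by edgeR). Oas1a has close paralogs in the same cluster, Oas1g among them, so its counts are uncertain too. Oas3, the longest of the OAS enzymes, had 9.23, 5.54 and 10.4 CPM in KO 1, KO 2 and KO 3, against 10.05, 20.4 and 10.3 CPM in WT 1, WT 2 and WT 3. The WT 2 value stood apart and KO 3 lay above WT 1 and WT 3 (log2 fold change -0.69, SE 0.37, adjusted p 0.688), and without WT 2 the log2 fold change was -0.28. Oas2, which lies next to Oas3, went the other way, with 40.1 ± 11.2 CPM in KO and 30.9 ± 6.57 CPM in WT (log2 fold change 0.38, SE 0.26, adjusted p 0.770). The OAS-like gene Oasl1, which in mice restrains translation of Irf7, averaged 4.46 ± 0.656 CPM in KO and 5.86 ± 2.51 CPM in WT, and Oasl2 averaged 45.0 ± 17.5 CPM in KO and 49.1 ± 17.5 CPM in WT, with log2 fold changes of -0.39 and -0.12 (SE 0.35 and 0.36). Without WT 2 the log2 fold change was -0.026 for Oasl1.

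Among the nucleic acid sensors all 5 had negative log2 fold changes and 1 was without overlap. Dhx58 (chromosome 11, 100556198 to 100565585, minus strand, mm9) encodes LGP2, the RIG-I-like helicase that lacks a signalling domain. It had 12.6, 10.3 and 12.5 CPM in KO 1, KO 2 and KO 3, against 17.2, 17.0 and 13.5 CPM in WT 1, WT 2 and WT 3. Every KO library lay below every WT library, the closest being KO 1 and WT 3 (log2 fold change -0.43, SE 0.16, unadjusted p 0.0358, adjusted p 0.602 by edgeR). Eif2ak2, the RNA-activated kinase PKR that halts translation, had 63.9, 56.5 and 51.2 CPM in the KO libraries and 65.9, 67.5 and 62.6 CPM in the WT libraries. KO 1 lay above WT 3, and the spread was narrow (log2 fold change -0.19, SE 0.11, adjusted p 0.717). Ddx58 (RIG-I) averaged 64.6 ± 7.10 CPM in KO and 68.2 ± 5.75 CPM in WT and Ifih1 (MDA5) 49.4 ± 5.12 CPM in KO and 53.5 ± 6.98 CPM in WT (SD, n = 3 each), differences of -0.080 and -0.12 on the log2 scale (SE 0.12 and 0.14). Zbp1, a sensor of Z-form nucleic acids that can trigger necroptosis, averaged 10.7 ± 2.35 CPM in KO and 12.3 ± 3.61 CPM in WT and had a log2 fold change of -0.21 (SE 0.27).

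The ISG15 system was split. Isg15, a ubiquitin-like protein, averaged 8.14 ± 1.86 CPM in KO and 10.4 ± 1.88 CPM in WT (SD, n = 3 each; log2 fold change -0.36, SE 0.23, adjusted p 0.745 by edgeR). Usp18, which removes ISG15 and dampens signalling at IFNAR2, averaged 17.4 ± 3.09 CPM in KO and 14.8 ± 3.56 CPM in WT (log2 fold change 0.23, SE 0.22). Herc6, the main ISG15 ligase of the mouse, averaged 44.4 ± 7.52 CPM in KO and 43.7 ± 9.44 CPM in WT (log2 fold change 0.025, SE 0.20), a direction that turns negative with upper-quartile scaling or total counts. In all 3 the groups overlapped.

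Antiviral effectors held the largest difference of the 30 genes. Rsad2 (chromosome 12, 27127608 to 27141317, minus strand, mm9) encodes viperin, which makes a chain-terminating nucleotide from CTP. It had 27.0, 14.7 and 21.6 CPM in KO 1, KO 2 and KO 3, against 22.4, 38.0 and 57.8 CPM in WT 1, WT 2 and WT 3. WT 3 was the highest library and KO 1 lay above WT 1 (log2 fold change -0.90, SE 0.39, unadjusted p 0.0590, adjusted p 0.629 by edgeR). Without WT 3 the log2 fold change of Rsad2 was -0.61. Cmpk2, a mitochondrial nucleoside monophosphate kinase transcribed away from Rsad2 on the same stretch (chromosome 12, 27154080 to 27164702, plus strand, mm9), differed in the other direction, with 22.6 ± 5.29 CPM in KO and 20.3 ± 5.60 CPM in WT (SD, n = 3 each; log2 fold change 0.16, SE 0.26). Of the 6 libraries WT 3 was the highest for Rsad2 and the lowest for Cmpk2.

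Bst2 (chromosome 8, 74058161 to 74061336, minus strand, mm9) encodes tetherin, which holds budding virions at the cell surface, and had the smallest unadjusted p of the set. Its level was 47.9, 41.1 and 43.8 CPM in KO 1, KO 2 and KO 3, against 52.8, 62.4 and 52.1 CPM in WT 1, WT 2 and WT 3. Every KO library lay below every WT library, KO 1 and WT 3 being the closest (log2 fold change -0.33, SE 0.12, unadjusted p 0.0316, adjusted p 0.592 by edgeR). With each library left out in turn the log2 fold change of Bst2 ran from -0.47 to -0.25. Mx1, a GTPase that in C57BL/6 mice is disrupted by an internal deletion and gives no functional protein, had 16.2, 11.1 and 10.8 CPM in the KO libraries and 13.6, 23.2 and 15.3 CPM in the WT libraries. KO 1 lay above WT 1 and WT 3 (log2 fold change -0.45, SE 0.27, adjusted p 0.718). Without WT 2 it was -0.18. Reads that Mx1 shares with Mx2 were not counted.

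**Figure D2:**
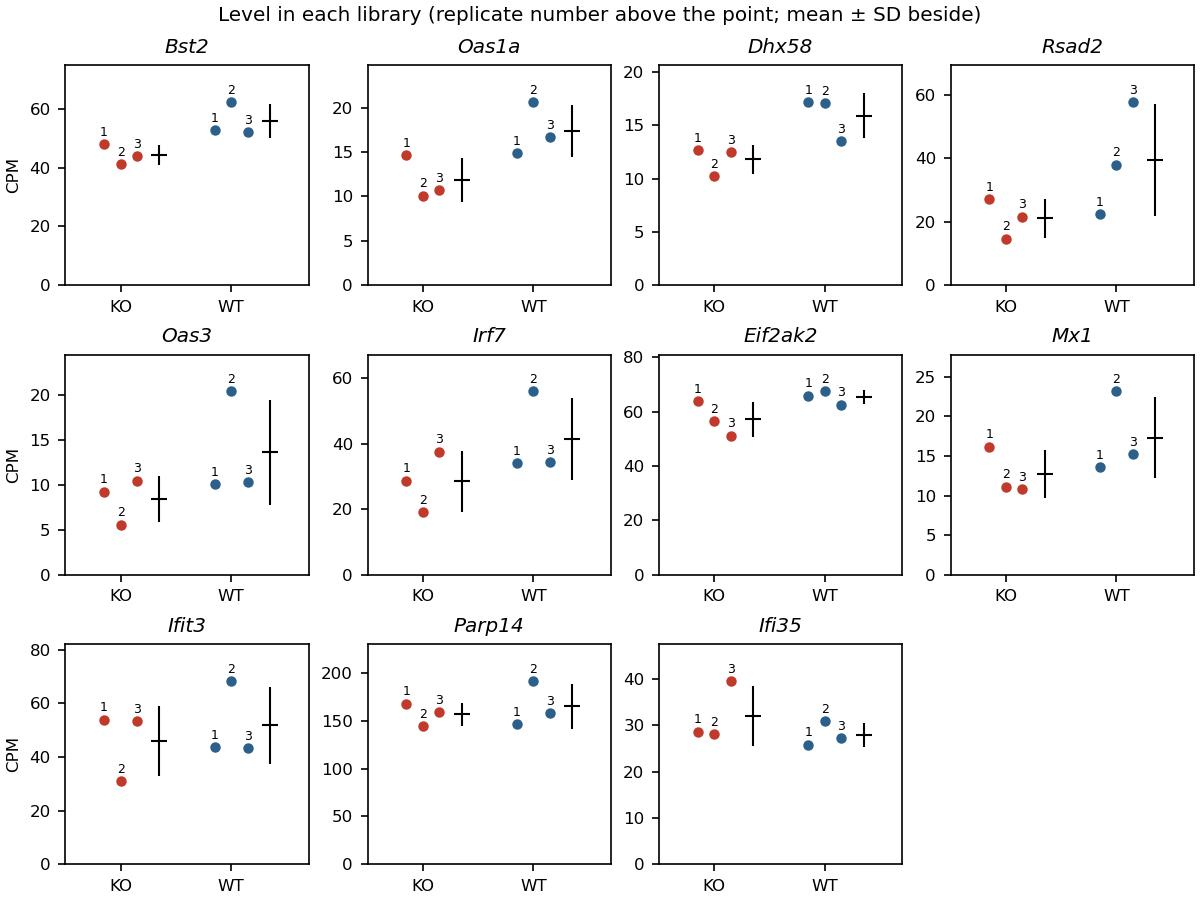
CPM in each library, KO left of WT with each group's mean ± SD (n = 3) beside its points, for the 8 genes with the smallest unadjusted p and the other 3 of the 4 genes with the highest mean RPKM. KO and WT points are separate in Bst2, Oas1a and Dhx58 and overlap in the other 8.

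Of the 7 PARP and other regulators 5 had negative log2 fold changes, and the groups overlapped in all 7. Parp14, a mono-ADP-ribosyltransferase, had 168, 145 and 159 CPM in KO 1, KO 2 and KO 3, against 147, 192 and 158 CPM in WT 1, WT 2 and WT 3. KO 1 lay above WT 1 and WT 3 (log2 fold change -0.074, SE 0.14, adjusted p 0.924 by edgeR). Parp9, which works with the ubiquitin ligase DTX3L, averaged 53.4 ± 7.06 CPM in KO and 57.1 ± 3.33 CPM in WT (log2 fold change -0.098, SE 0.13). It was the only one of the 30 whose exons overlap another gene's, with 334 bases (9.37% of its exon length) shared with Dtx3l on the opposite strand, and reads there were left out as ambiguous. Ifi35 had 28.6, 28.1 and 39.6 CPM in the KO libraries and 25.8, 30.9 and 27.2 CPM in the WT libraries. KO 3 was the highest library and WT 1 the lowest (log2 fold change 0.20, SE 0.17, adjusted p 0.838), and without KO 3 the difference was 0.017.

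Trim30a, which in mice restrains Toll-like receptor signalling and belongs to a family of near-identical copies, had a log2 fold change of -0.21 (SE 0.15). Xaf1, which antagonises the apoptosis inhibitor XIAP, had 0.20 (SE 0.22), and Rtp4, a transporter protein that restrains interferon responses in mice, had -0.029 (SE 0.17). Ifi44 averaged 8.12 ± 1.93 CPM in KO and 11.8 ± 5.85 CPM in WT (log2 fold change -0.54, SE 0.38), and without WT 2 its log2 fold change was -0.052.

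**Figure D3:**
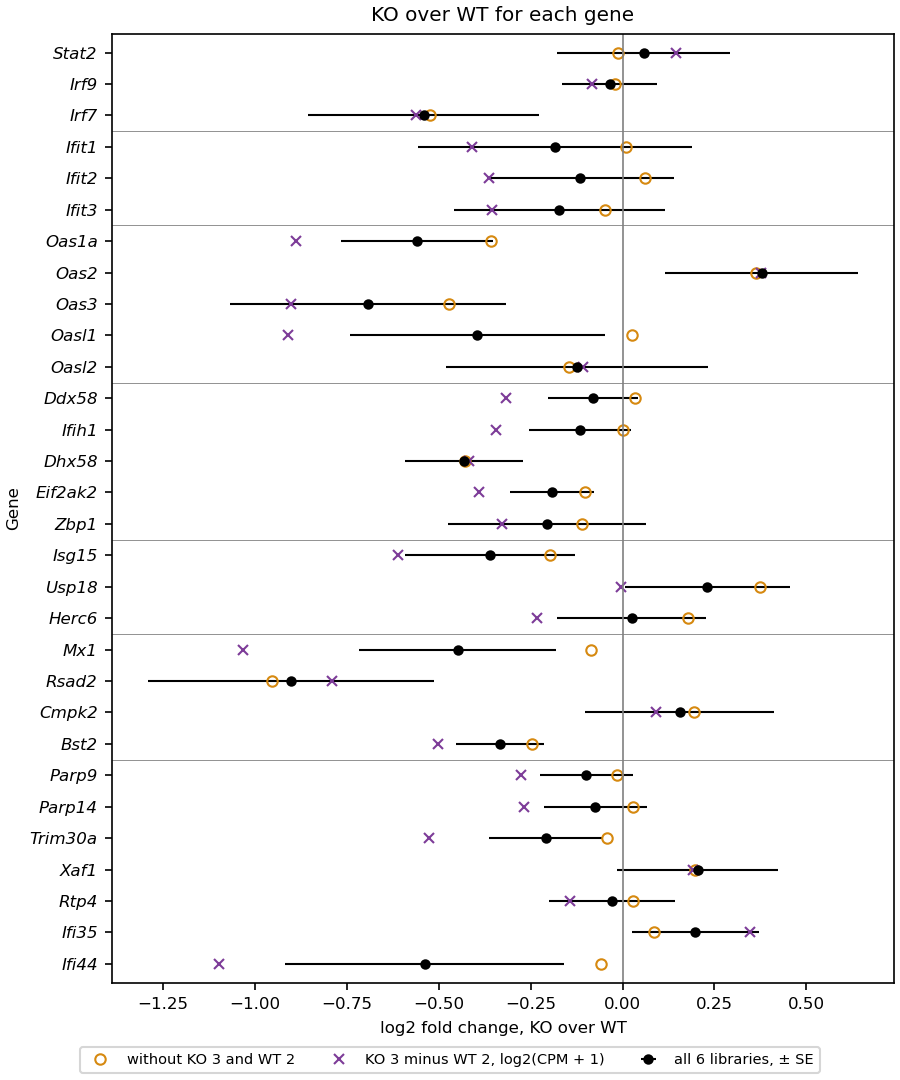
Log2 fold change of KO over WT with its standard error for each of the 30 genes (black), the log2 fold change without KO 3 and WT 2 (open circles) and the log2(CPM + 1) difference of KO 3 minus WT 2 (crosses), with genes grouped by role. Crosses lie below 0 for 25 genes and open circles for 17.

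Per kilobase of exon the 30 genes spanned more than an order of magnitude over the 6 libraries. Bst2 was the highest at 65.3 ± 9.90 RPKM (SD, n = 6), followed by Ifit3 at 24.5 ± 6.36, Parp14 at 22.3 ± 2.40 and Ifi35 at 22.1 ± 3.66 RPKM. Those last 3 differed by less than the SD of Ifit3. Oas3 (2.33 RPKM), Oasl1 (2.43 RPKM) and Ifi44 (3.42 RPKM) were the lowest.

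**Figure D4:**
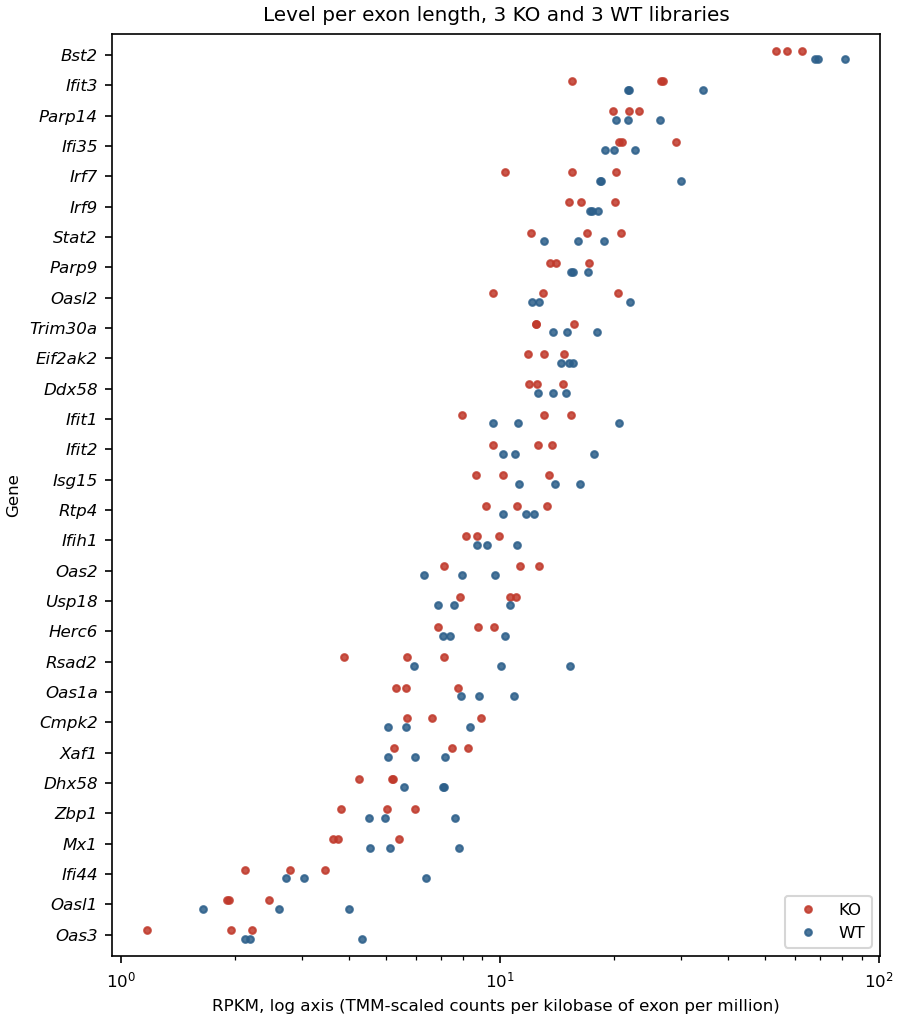
RPKM of the 30 genes in each library on a log axis, in order of the mean over the 6 libraries, with KO and WT libraries in separate colours. The mean runs from 65.3 RPKM for Bst2 to 2.33 RPKM for Oas3, and KO and WT points mix along the order.

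More of the 30 genes were lower in KO within the pair of libraries with neuronal transcripts than outside it, a difference not tested. Within the pair, single libraries are compared on the log2(CPM + 1) scale. Outside it, edgeR fold changes are given, so the medians are unlike measures. WT 2 itself was the highest library for 19 of the 30 genes. Between KO 3 and WT 2 alone, 25 of the 30 genes were lower in KO 3, with a median log2(CPM + 1) difference of -0.35, against 0.11 over all genes, of which 38.7% were lower. Without this pair 17 of the 30 were lower in KO, with a median of -0.018, against 0.0026 and 49.5% lower over all genes. In that fit Gbp2b alone was called (adjusted p 0.0386 by edgeR), and 7 of the 30 (23.3%) did not overlap, against 40.7% of all genes. KO 3 and WT 2 were the highest 2 libraries in 9 of the 30 genes (30%) and in 22.2% of all genes tested.

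Leaving out 1 library at a time changed the median log2 fold change of the set, -0.15 with all 6. It was -0.29 without KO 1, -0.043 without KO 2 and -0.19 without KO 3, and -0.23 without WT 1, -0.013 without WT 2 and -0.36 without WT 3. The number of genes lower in KO was 16 without WT 2 and 26 without WT 3, the lowest and the highest of the 6 values. Genes without overlap numbered 13 without KO 1 (43.3%, against 26.6% of all genes), and 4 to 6 without any other library, 13.3% to 20%, against 22.3% to 29.5% of all genes.

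The rest of the interferon system was read from the same fit, and no gene of it passed the adjusted threshold by edgeR. Of 20 type I and type III interferon ligands 11 were at 0 in every library, and 1, Ifnk, passed the filter, with at most 19 counts in a library. Ifnb1 had 4 counts in WT 2 and 0 in the other 5 libraries. Ifng, the type II interferon, had 6, 0 and 4 counts in KO 1, KO 2 and KO 3, against 0, 10 and 0 in WT 1, WT 2 and WT 3. Ifnk, an interferon of keratinocytes, had 0.604, 0.698 and 0.749 CPM in the KO libraries and 0.318, 0.437 and 0.541 CPM in the WT libraries, with every KO library above every WT library (log2 fold change 0.65, SE 0.33, adjusted p 0.680 by edgeR). A count of 0 allows an expected value of up to 3 independent counts, and more if the reads of a pair were counted separately. Differences in the other ligands, which did not pass the filter, were not tested.

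Receptors and JAK-STAT components were lower in KO for 9 of 10 genes, with a median log2 fold change of -0.19 and 5 without overlap, all with KO below WT. Over all genes tested 39.1% were lower, the median was 0.068 and 16.7% did not overlap. In this list, without KO 3 and WT 2, 8 of 10 were lower, with a median of -0.13, against 49.5% lower over all genes. Ifnar1, a chain of the type I receptor, averaged 89.0 ± 9.93 CPM in KO and 113 ± 5.09 CPM in WT (SD, n = 3 each; log2 fold change -0.34, SE 0.12, adjusted p 0.587 by edgeR). Ifnar2, its partner, averaged 52.7 ± 12.6 CPM in KO and 64.7 ± 2.68 CPM in WT (log2 fold change -0.30). Leaving out KO 3, its lowest library, gave -0.11. Ifngr2, a chain of the interferon-gamma receptor, and Il10rb, a chain shared by the type III receptor, had log2 fold changes of -0.36 and -0.45 (adjusted p 0.599 and 0.617).

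Sensors, adaptors and other genes that induce or restrain interferon were lower in KO for 17 of 19 genes, against 39.1% of all genes. Their median was -0.23, and 10 were without overlap (52.6%, against 16.7% of all genes), all with KO below WT. Without KO 3 and WT 2, 16 of 19 were lower, against 49.5% of all genes, with a median of -0.15. Irf5, a factor downstream of Toll-like receptors, averaged 26.0 ± 6.10 CPM in KO and 45.2 ± 5.81 CPM in WT (log2 fold change -0.80, SE 0.21, adjusted p 0.587). Tlr9, the receptor for unmethylated DNA, and Unc93b1, its chaperone, had log2 fold changes of -0.88 and -0.56. Of 6 feedback inhibitors 4 were lower, with a median of -0.31 and 2 without overlap (33.3%); without KO 3 and WT 2, 4 of 6 were lower, with a median of -0.23. Socs3 averaged 28.0 ± 9.45 CPM in KO and 62.7 ± 13.7 CPM in WT (log2 fold change -1.16, SE 0.31, adjusted p 0.587), the phosphatase gene Ptpn6 had -0.87 and Ptpn2 had -0.35.

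Other interferon targets also had more negative than positive differences. Of 46 other type I targets tested 29 were lower, with a median of -0.079 and 7 without overlap (15.2%, just under the 16.7% of all genes), 6 of them with KO below WT; without KO 3 and WT 2, 29 of 46 were lower, with a median of -0.061. Slfn2 had a log2 fold change of -0.73 and Lgals3bp of -0.43, whereas Ifi27 was higher in KO, with 188 ± 14.9 CPM in KO and 132 ± 17.0 CPM in WT (log2 fold change 0.52, SE 0.14, adjusted p 0.587). Of 27 interferon-gamma targets tested 20 were lower, with a median of -0.21 and 8 without overlap (against 16.7% of all genes); without KO 3 and WT 2, 17 of 26 were lower, with a median of -0.15. The list held H2-D1, a class I antigen-presenting gene (-0.42), Ciita, the activator of class II genes (-0.56), Psmb8 of the immunoproteasome (-0.38) and the chemokine gene Cxcl10 (-1.40; -0.48 without WT 2). The guanylate-binding proteins, kept out of the set, had 4 of 11 lower and a median of 0.057. Gbp2b, with 0.474, 1.35 and 3.11 CPM in the KO libraries and 27.2, 40.1 and 22.2 CPM in the WT libraries, stood far from the others (log2 fold change -4.17, SE 0.68, adjusted p 0.587 by edgeR and 1.20e-08 by DESeq2), and Gbp11 and Gbp10 had 1.02 and 0.71, or 0.41 and 0.44 without KO 3.

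Cell type markers were read from the same fit, and their relation to the interferon system was not tested. Macrophage markers were lower in KO for 12 of 15 genes, all 12 without overlap and 0 past the adjusted threshold by edgeR. By DESeq2 Aif1, which was lower in KO, passed it (adjusted p 0.0344). Cd163, a scavenger receptor and 1 of the 3 that were higher, did not overlap in the other direction, with 95.6, 112 and 161 CPM in the KO libraries and 74.4, 33.1 and 79.3 CPM in the WT libraries (log2 fold change 0.98, SE 0.37, adjusted p 0.612 by edgeR). The 13 without overlap are 86.7% of the list, against 16.7% of all genes, and without KO 3 and WT 2, 13 of 15 were lower, with a median of -0.60. The markers summed to 4269.6, 4013 and 1832 CPM in KO 1, KO 2 and KO 3, against 5473, 5329 and 6574 CPM in WT 1, WT 2 and WT 3. The sensors and adaptors summed to 849, 810.3 and 669.9 CPM in KO 1, KO 2 and KO 3, against 901, 968 and 969.9 CPM in WT 1, WT 2 and WT 3, likewise with every KO library below every WT library and KO 3 the lowest. The part of macrophage content in that difference was not tested. The summed level of the 30 genes was highest in WT 2 and lowest in KO 2, and its relation to the macrophage sum was not tested. Smooth muscle markers, 7 of 7 higher in KO with overlap, summed to 8857, 14261 and 5711 CPM in KO 1, KO 2 and KO 3, against 9526, 5382 and 7467 CPM in WT 1, WT 2 and WT 3. Adipocyte markers were higher for 8 of 8 genes, 6 without overlap, and summed to 1287, 991 and 1123 CPM in KO 1, KO 2 and KO 3, against 788, 245 and 625 CPM in WT 1, WT 2 and WT 3. Markers of plasmacytoid dendritic cells, a main source of type I interferon, were lower for 2 of 7 genes tested, with overlap in all 7. Their sum is not informative, since Tcf4, which other cells express too, supplied 187 to 215 CPM of it in each library and Pacsin1 had 43.6 CPM in KO 3 and 26.0 CPM in WT 2, the libraries with neuronal transcripts, against 1.5 to 2.5 CPM in the other 4. Their marker Siglech had 3.02, 3.40 and 2.92 CPM in the KO libraries and 4.41, 1.82 and 1.70 CPM in the WT libraries. Markers of T and NK cells, sources of interferon-gamma, were lower for 10 of 10 genes tested, with overlap and a median of -0.50, and summed to 18.8, 27.3 and 6.47 CPM in KO 1, KO 2 and KO 3, against 22.3, 23.7 and 27.8 CPM in WT 1, WT 2 and WT 3. KO 3 was the lowest library, and without KO 3 and WT 2, 6 of 10 were lower, with a median of -0.048. The part of these cell types in the levels of the 30 genes was not tested.

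**Figure D5:**
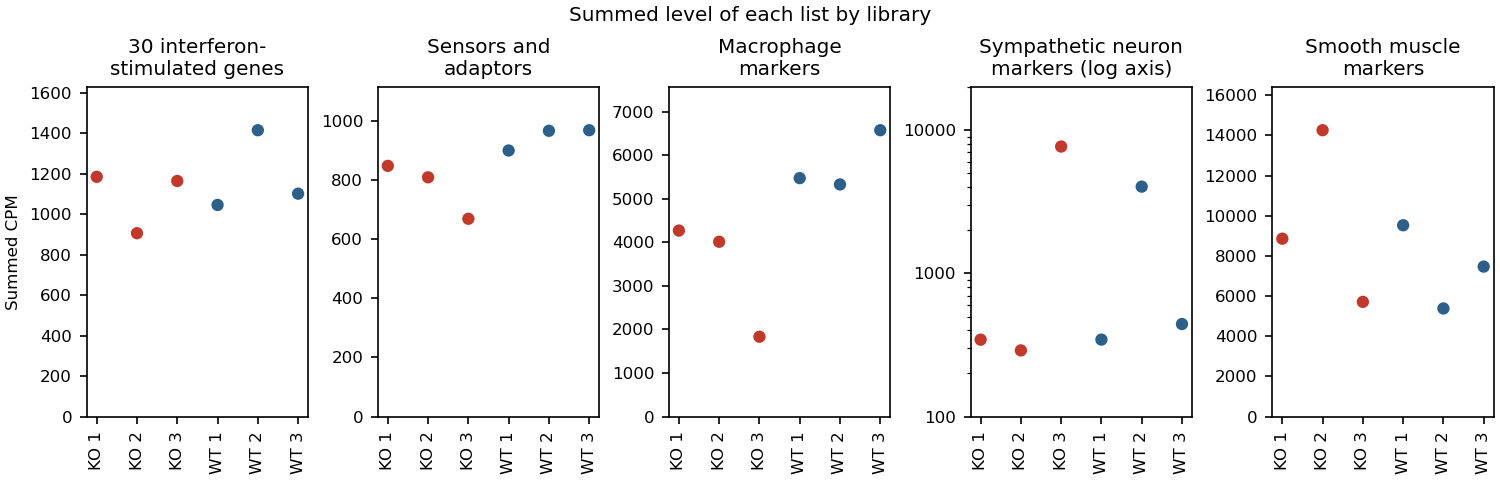
Summed CPM by library, KO left of WT, of the 30 interferon-stimulated genes, of sensors and adaptors, and of macrophage, sympathetic neuron (log axis) and smooth muscle markers. KO lies below WT in sensors and macrophage markers, the 30 genes overlap between the groups, and KO 3 and WT 2 stand above the rest in neuron markers.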

How the data were processed

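RNA sequencing counts of 6 libraries (3 KO, 3 WT) were used. The authors deposited raw read counts per gene with exon length, made with featureCounts 1.4.6-p4 on mm9 exons, per the file headers, and no normalization by the authors. Strand, pairing and multi-mapping options are missing from the header's command, so reads of near-identical copies were not counted. Values of 2 (5272 in all) outnumbered values of 1 (1614 in all), so the reads of a pair may have been counted separately. Per the submitters' processing notes, the tools included STAR (listed as version 3.0), DESeq2, Subread and CASAVA.

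Groups and replicate numbers came from the titles; 3 animals per group are stated. The comparison of KO with WT used the quasi-likelihood functions of edgeR 4.0.16 (R 4.3.3, glmQLFit, glmQLFTest, two-sided, TMM, filterByExpr with a minimum count of 10), with Benjamini-Hochberg adjustment over the 15937 genes tested. CPM are TMM-scaled, RPKM divide them by exon length, and standard errors come from the F statistic. Lists were described by counts and medians. The procedure was tested on simulated data. Total counts were 22223584 to 26982005, so counting error was small except for ligands and some markers.

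All 30 members are named; of the other lists the 3 genes with the smallest unadjusted p, plus Ifng, Ifnb1, Ifnar1, Ifnar2, Gbp2b, Cxcl10, Siglech and Col15a1, and values in every library for the 8 members with the smallest unadjusted p and the 4 with the highest RPKM. Cd163, Aif1, Tcf4 and Pacsin1 were named after their values were seen. Marker lists are given as sums, and 1 further gene of the rule is not reported here. Members and lists were chosen with earlier results of these data known. Other scalings, filters and tools, a replicate block and left-out libraries were tried.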

Additional observations from a re-analysis of the deposited data

How the results depend on the processing

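Of the 30 genes 28 kept their direction in the 9 settings other than the reported one that used all 6 libraries (other scalings, Rn45s left out, other filters, DESeq2, limma-voom and the replicate block), and 19 kept it with each library left out in turn. The number of the 30 called was 0 under every setting run. DESeq2 called 53 genes in all, where edgeR called 0, and Gbp2b, Col15a1 and the macrophage marker Aif1 were among them. Upper-quartile scaling gave 5 genes without overlap in place of 3, but the share of all genes was not taken for that scaling, so the 2 numbers cannot be read as a change. With each library left out that number ran from 4 to 13, where fewer libraries have to be apart. Those are 13.3% to 43.3% of the 30, against 22.3% to 29.5% of all genes. Herc6 turned to a log2 fold change of -0.0018 with upper-quartile scaling and -0.037 with total counts, and Stat2 to -0.0018 with total counts. Without KO 3 and WT 2, a setting chosen after seeing the data, 1 gene was called and 7 of the 30 did not overlap (23.3%, against 40.7% of all genes). In that setting the log2 fold change turned to -0.012 for Stat2, 0.010 for Ifit1, 0.061 for Ifit2 and 0.026 for Oasl1. It also turned to 0.033 for Ddx58, 0.0024 for Ifih1, 0.029 for Parp14 and 0.029 for Rtp4. The cause was not tested. With 1 library left out, the log2 fold changes that turned sign ran -0.14 to 0.24 for Stat2, -0.16 to 0.22 for Herc6, -0.23 to 0.044 for Irf9, -0.41 to 0.23 for Ifit1, -0.35 to 0.18 for Ifit2, -0.38 to 0.078 for Ifit3, -0.47 to 0.21 for Oasl2, -0.24 to 0.093 for Rtp4, -0.069 to 0.40 for Cmpk2, -0.43 to 0.057 for Zbp1, -0.20 to 0.045 for Parp14 and -0.055 to 0.82 for Siglech.

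With the replicate number as a block, 0 genes and 0 of the 30 were called, 23 were lower in KO and the median was -0.13. Deviations of same-numbered libraries correlated across genes at 0.43, -0.68 and -0.58, so the numbers were not taken to pair the animals. No libraries of a group agreed within sampling noise (chi-square per degree of freedom of 30.4 or more). Depth limits statements on the interferon ligands, and near-identical copies limit those on Oas1a, Ifit3, Mx1 and Trim30a.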
